A study of Bos taurus with 30 samples.

Results

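ATAC-seq of bovine oocytes, in vitro produced embryos and embryonic stem cells (ESC) was searched for chromatin first found open in the blastocyst and also open in ESC. The regions described here were chosen by peak presence alone. Peaks of the 3 libraries of a stage were merged where they shared at least 1 bp, and a region of the stage was kept where peaks of 2 or more libraries overlapped it. Of 84396 regions of the inner cell mass (ICM), 2052 (2.43%) overlapped a region of ESC and no region of GV oocytes, 2-cell, 4-cell or 8-cell embryos or morula. They are called ICM/ESC regions below, and their presence or absence in the lists that chose them is given as a description, with no test.

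The 30 libraries fell into 10 groups of 3. Control groups were germinal vesicle-stage (GV) oocytes taken before maturation, 2-cell embryos, 4-cell embryos at 2 days post-insemination, 8-cell embryos at day 3, morula at day 5, ICM and ESC. ICM were isolated by immunosurgery from day 7 blastocysts, and ESC were CTFR-bESC lines derived from ICM, grown with FGF2 and the Wnt pathway inhibitor IWR-1 on mouse embryonic fibroblast feeders, from which they were separated by plating before lysis. Transcription blocked embryos (TBE) of the 2-, 4- and 8-cell stages were cultured from day 1 in 50 µg/ml α-amanitin, which blocks RNA polymerase II, alongside control embryos of the same collection. All embryos came from oocytes matured and fertilized in vitro with frozen semen, and each library held a pool, so a peak could come from some of the cells only. Whether the 3 ESC libraries came from separate lines is not stated in the sources used here, so the spread between them may be technical.

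ATAC-seq marks open chromatin with a transposase that inserts sequencing adapters where DNA is not covered by nucleosomes. The ICM is the group of blastocyst cells that gives rise to the epiblast and hypoblast, while the surrounding trophectoderm contributes to the placenta. ESC are lines grown from the ICM, and both rely on transcription factors such as OCT4 (POU5F1), SOX2 and NANOG, which bind enhancers, many of them far from promoters. Regions open in both are therefore often looked at as candidate regulatory sites of pluripotent cells. Genes near the ICM/ESC regions and their sequences were not analysed here, because no genome or annotation of the build of the peak lists, ARS-UCD1.2, was used, and so pluripotency itself was not checked against marker genes.

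The peak lists held between 925 and 247513 peaks, and the number of reads behind them was not used here. ICM lists held 84773 to 116791 peaks, ESC lists 39333 to 142643 peaks, and lists of 2-cell embryos were the shortest among control stages. The longest control list was morula replicate 2, with 207459 peaks, and the longest list of all was 8-cell TBE replicate 2. A longer list overlaps any set of regions more often, so shares are compared between sets of regions within a library wherever possible.

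ICM/ESC regions were a minority of what was new in the ICM. Of the 13119 ICM regions with no counterpart from GV oocyte to morula, 15.6% overlapped an ESC region and 11067 did not (ICM-only regions). Among the 71277 ICM regions found at an earlier stage, 44.7% overlapped an ESC region, and the share over all ICM regions was 40.2%. Seen from ESC, 32566 regions were absent from GV oocyte to morula, and 1994 of them (6.12%) overlapped an ICM/ESC region.

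The share of ICM regions also found in ESC fell with the stage at which a region first appeared. It was 82.1% of the 21035 ICM regions already present in GV oocytes, 62.6% of 1658 regions first seen at the 4-cell stage, 32.8% of 23688 first seen at the 8-cell stage, 23.3% of 24869 first seen in morula, and 15.6% of those first seen in ICM. Only 27 ICM regions first appeared in 2-cell embryos, of which 33.3% were in ESC. Each ESC library taken alone gave the same order of these stages apart from the 2-cell stage. In ESC replicate 1 the share went from 59.7% for regions of GV oocytes to 7.13% for regions new in ICM, in replicate 2 from 87.1% to 25.5%, and in replicate 3 from 83.2% to 17.7%. ICM regions already found in the oocyte were thus found in ESC more often than regions first seen in ICM, in all 3 ESC libraries.

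**Figure D1:**
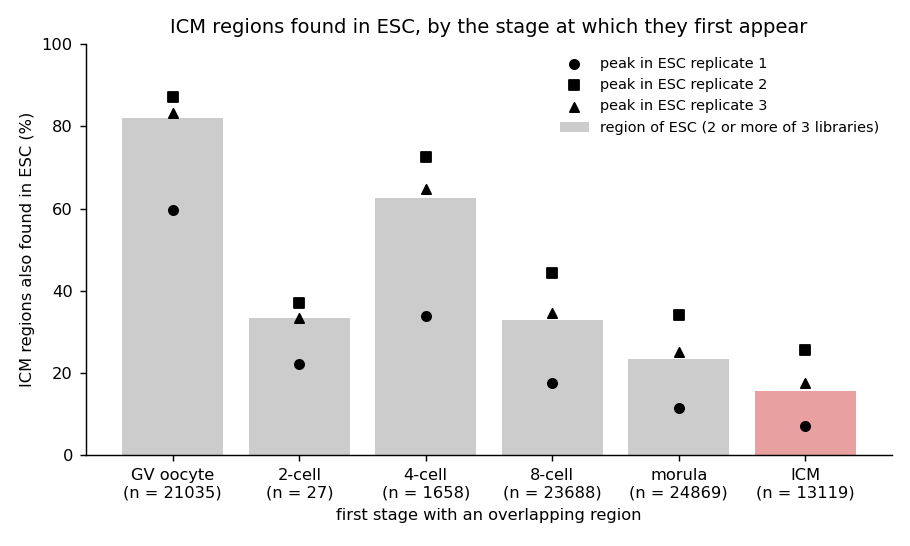
Share of ICM regions that overlap an ESC region (bars, %) or have a peak in each ESC library (symbols, %), by the first stage at which a region overlaps them, with n the number of ICM regions. Apart from the 2-cell stage, bars fall from 82.1% for regions present in GV oocytes to 15.6% for those first seen in ICM, the ICM/ESC regions (red bar). The 2-cell bar rests on 27 regions.

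ICM regions with stronger peaks overlapped ESC more often. Fold enrichment, the pileup of tags in a peak over the local background of its library, was averaged over the ICM lists with a peak, and regions were placed in 4 ranges holding equal numbers of regions new in ICM. From the lowest range to the highest, 14.1%, 14.4%, 16.0% and 18.1% of regions new in ICM overlapped ESC. Earlier ICM regions divided at the same limits overlapped ESC in 31.9%, 34.8%, 40.4% and 53.5%. The lowest and highest ranges had open ends. Earlier regions in the highest range could thus be stronger than any new region, which reached 9.60. In each range, including the middle ones with closed limits, the earlier regions were found in ESC more than 2 times as often as the new ones.

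Within the ICM, ICM/ESC regions had peaks in 1175 cases (57.3%) in replicate 1, 1683 (82.0%) in replicate 2 and 1957 (95.4%) in replicate 3. The values of ICM-only regions were 57.2%, 79.5% and 94.1%, so the libraries contributed to both sets in nearly the same way. In ESC, 907 (44.2%), 2010 (98.0%) and 1894 (92.3%) ICM/ESC regions had a peak in replicates 1, 2 and 3, and the low value belonged to the shortest ESC list. Peaks of all 3 ICM lists overlapped 711 ICM/ESC regions (34.6%) and peaks of exactly 2 overlapped 1341. All 6 ICM and ESC lists had a peak in 296 (14.4%). Neither share was computed over all ICM regions. In 87 cases a single ESC list reached into the ICM region, and the other ESC peaks of that region lay beside it.

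Single earlier libraries held peaks in many of the regions, which the rule allowed as long as the stage had no region there. At least 1 of the 15 lists from GV oocyte to morula had a peak in 1277 ICM/ESC regions (62.2%), and none had one in 775 (37.8%). Morula replicate 2 alone accounted for 544 (26.5%). Across morula replicates, 56 (2.73%), 841 (41.0%) and 150 (7.31%) ICM/ESC regions had a peak, and across 8-cell replicates 89 (4.34%), 131 (6.38%) and 114 (5.56%). In GV oocytes the shares were 4.43%, 3.95% and 3.17%, in 4-cell embryos 8.24%, 2.58% and 0.877%, and in 2-cell embryos 0.146%, 0 and 0.487%. Among ICM-only regions 49.4% had a peak in at least 1 earlier list, and the share in morula replicate 2 was 30.7%. The median fold enrichment of the morula replicate 2 peaks in ICM/ESC regions was 3.55, against 5.12 for its peaks over all ICM regions. Absence before the ICM was therefore complete in these lists for only 775 of the regions, and the longest control list held most of the exceptions.

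**Figure D2:**
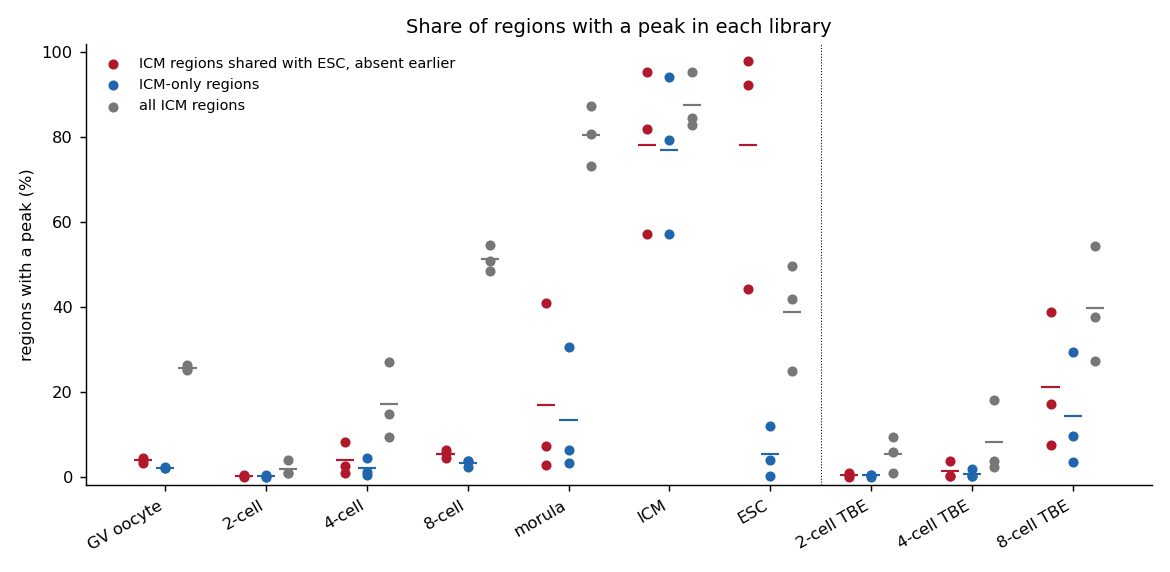
Share of ICM/ESC regions (red), ICM-only regions (blue) and all ICM regions (grey) with a peak in each of the 30 libraries (points, %), with the mean of the 3 libraries of a group as a line and TBE groups right of the dotted line. The red morula point at 41.0% is replicate 2, the longest control list, and the red 8-cell TBE points lie at 7.41%, 17.1% and 38.9%.

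The limits of the rule cut through a continuous range of values. Regions with peaks in exactly 2 ICM lists had a median fold enrichment of 3.82, and 3715 intervals with a peak in 1 ICM list that otherwise met the rule had a median of 3.32. The ESC region covered a median of 85.8% of an ICM/ESC region, less than 50% of it in 475 cases, and fewer than 50 bp in 9. An earlier region lay within 200 bp of 25 ICM/ESC regions without touching them, and 8 further ICM regions shared with ESC were left out for 1 to 50 bp in common with an earlier region.

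ICM/ESC regions were short and of moderate strength. Their median length was 488 bp (middle 50%, 324 to 847 bp, range 203 to 2984 bp), against 449 bp for ICM-only regions, 560 bp for regions that first appeared in morula and were shared with ICM and ESC (morula-born regions, 5794 in number), and 602 bp for all ICM regions. The ESC regions that overlapped them had a median length of 529 bp. Median fold enrichment of their peaks was 4.09, 3.78 and 4.15 in ICM replicates 1, 2 and 3, between the values of ICM-only regions (3.97, 3.69 and 4.01) and those of morula-born regions (4.58, 4.25 and 4.51) in each library. In ESC the medians were 4.21, 4.72 and 4.13, and 63.3% of the ICM/ESC regions had a larger mean fold enrichment in ESC than in ICM lists. That share was not computed over all ICM regions. Their peaks had medians of 4.57, 4.23 and 4.47 in ICM replicates 1, 2 and 3 and of 4.54, 4.71 and 4.53 in ESC. The largest value of an ICM/ESC region was 11.4 in any ICM list and 13.7 in any ESC list, while all ICM regions reached 19.1 and 20.2. The comparison between ICM and ESC is across libraries with separate backgrounds and was not tested.

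Of the 296 regions with peaks in all 6 ICM and ESC lists, 81 had none in the 15 earlier lists. The 10 with the largest mean fold enrichment over the 6 lists lay on 8 chromosomes and are given on ARS-UCD1.2 with their values in replicates 1, 2 and 3 in order. The strongest, chr10:56679438-56679832, had fold enrichments of 3.62, 6.68 and 11.4 in ICM and of 9.89, 11.9 and 11.2 in ESC. Its ESC values lay close together, while its ICM values spread over a 3-fold range and reached into those of ESC. The region chr4:27212026-27212371 had 7.49, 5.92 and 8.70 in ICM and 5.41, 11.1 and 8.23 in ESC, with the lowest and the highest value both in ESC. At chr15:20696817-20697306 the values were 5.23, 8.86 and 7.98 in ICM and 4.10, 7.75 and 7.26 in ESC, the only region of the 10 with a higher mean in ICM (7.35 ± 1.90 against 6.37 ± 1.98, SD, n = 3). The groups overlapped at both sites.

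At 3 of the 10 regions every ESC value was above every ICM value. The region chr9:9408518-9408926 had 4.31, 4.80 and 4.92 in ICM and 9.16, 9.81 and 10.9 in ESC, a mean of 4.68 ± 0.322 against 9.95 ± 0.865 (SD, n = 3). At chr2:104926633-104927958, the longest of the 10 with 1326 bp, the values were 4.00, 3.57 and 4.77 in ICM and 8.59, 10.8 and 9.62 in ESC. ESC regions covered 35.3% of its length, so the strong ESC signal occupied a part of a longer ICM region. The region chr22:30564953-30565426 had 4.85, 5.73 and 5.38 in ICM and 6.07, 8.32 and 6.66 in ESC, without overlap of the groups. At chr9:59075259-59076122, with 4.62, 4.25 and 6.38 in ICM and 6.13, 6.78 and 8.91 in ESC, the highest ICM value passed the lowest ESC value.

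The remaining 3 regions had ICM and ESC values that overlapped. They were chr19:48464172-48464528 (ICM 4.65, 4.76 and 7.09, ESC 4.90, 8.46 and 7.44), chr3:78655281-78656034 (ICM 3.53, 7.80 and 3.88, ESC 8.07, 6.92 and 6.70) and chr10:29255457-29255895 (ICM 4.72, 5.31 and 7.93, ESC 4.51, 8.66 and 5.67). At the chr3 region ICM replicate 2 stood above the other ICM libraries. Of the 10 regions, 8 had no peak in any TBE list, chr9:9408518-9408926 had peaks in 2 of the 8-cell TBE lists and chr22:30564953-30565426 in 1.

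**Figure D3:**
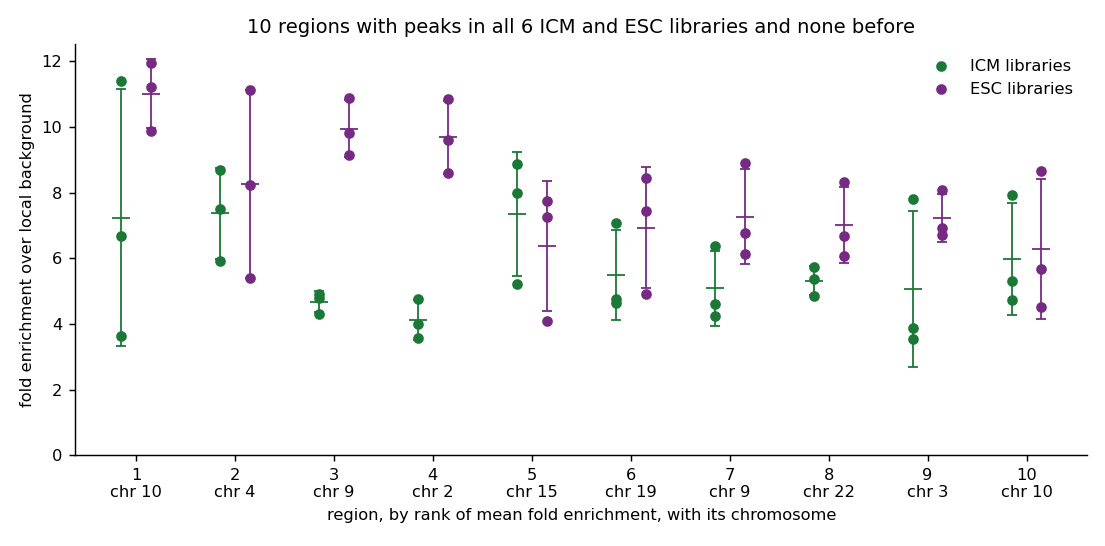
Fold enrichment over local background in each ICM (green) and ESC (purple) library at the 10 strongest regions with peaks in all 6 lists and in no earlier control list, with mean ± SD (n = 3 libraries a group). ESC points lie clear of ICM points at the regions ranked 3, 4 and 8, on chromosomes 9, 2 and 22.

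The regions were unevenly spread over the genome. Chromosomes 9, 6 and 12 had the largest shares of ICM/ESC regions among their ICM regions, with 3.65% (108 of 2962), 3.39% (110 of 3244) and 3.33% (75 of 2251). Chromosomes 19, 25 and 18 had the smallest, with 1.02% (30 of 2938), 1.21% (21 of 1729) and 1.40% (40 of 2862). Taken as groups, chromosomes 6, 9 and 12, known as gene-poor, held 3.46% and chromosomes 18, 19 and 25, known as gene-dense, held 1.21%. The same groups had 13.9% and 11.3% of ICM-only regions, and 7.67% and 3.96% of morula-born regions. The contrast was thus larger for ICM/ESC regions than for ICM-only regions, as it was for morula-born regions, which are also shared with ESC. On the X chromosome the share was 2.21%, close to the 2.44% of all autosomes, and unplaced scaffolds held 13 ICM/ESC regions. Chromosomes are not replicates, and gene density itself was not measured here.

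**Figure D4:**
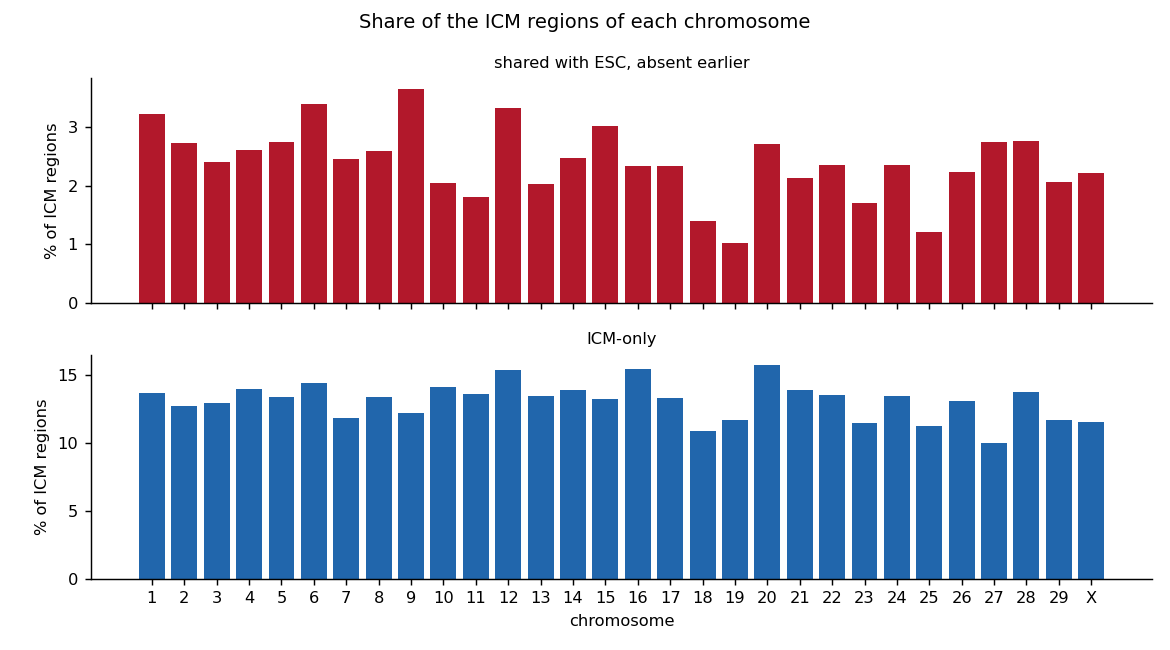
ICM/ESC regions (top, %) and ICM-only regions (bottom, %) as a share of the ICM regions of each autosome and of X. The top bars range from 1.02% on chromosome 19 to 3.65% on chromosome 9, and the bottom bars from 10.0% on chromosome 27 to 15.7% on chromosome 20.

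On a local scale, another ICM/ESC region lay within 100 kb of 21.1% of ICM/ESC regions. This share depends on the number of regions and was not set against a background. The densest window of 1 Mb, on chromosome 9 with midpoints from 75747358 to 76494373, held 7. The median distance to the nearest region of an earlier stage was 4.77 kb (middle 50%, 2.02 to 9.62 kb), against 3.95 kb for ICM-only regions. Within 50 kb of an ICM/ESC region there were on average 3.79 other ICM regions, fewer than the 4.29 around ICM-only regions and the 4.54 around all ICM regions. In the opposite direction, 69.6% had an ESC-only region (one of 30430 ESC regions with no counterpart in ICM or earlier) within 50 kb, compared with 63.8% of ICM-only regions, 66.4% of morula-born regions and 59.7% of all ICM regions. ICM/ESC regions thus had fewer ICM neighbours but more often an ESC neighbour, a description of lists that also chose them.

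Whether regions shared by ICM and ESC were found again more often than regions of a single stage was asked in libraries held out of the choice. Each ICM and ESC library was left out in turn, regions of its stage were taken from peaks of both other replicates, those found from GV oocyte to morula were removed, and the rest were divided by overlap with a region of the other cell type. In held-out ICM libraries, 44.7%, 65.9% and 88.0% of shared regions had a peak in replicates 1, 2 and 3, against 41.9%, 60.0% and 84.1% of regions found in ICM only. In held-out ESC libraries the shares were 42.6%, 98.1% and 90.4%, against 30.4%, 97.2% and 84.4% of regions found in ESC only. Shared regions were thus found again more often in 6 of 6 libraries, by 5.30 percentage points on average (SD 3.89, n = 6 libraries). An exact two-sided sign-flip permutation test gave p = 0.03125, the smallest that 6 libraries can give. Each library also helped choose or divide the regions while others were held out. The 6 differences were therefore not independent, as the test assumes, and the p-value is only a guide. Peak strength was not matched between shared and single-stage regions. In ICM replicates 1, 2 and 3, ICM/ESC regions had median fold enrichments of 4.09, 3.78 and 4.15, against 3.97, 3.69 and 4.01 for ICM-only regions. Whether the difference in recurrence goes beyond that in strength was not tested. With equal numbers of top peaks in the ICM and ESC lists the difference was 3.89 points and no longer passed the threshold (exact permutation p = 0.125), and with any single library left out the smallest possible value is p = 0.0625, which it reached each time.

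TBE libraries took no part in the choice of regions, and they address whether chromatin at ICM/ESC sites could be open earlier and without embryonic transcription. No ICM/ESC region overlapped a region of 2-cell or 4-cell TBE, while 357 (17.4%) overlapped a region of 8-cell TBE (peaks in 2 or more of 3 libraries). The background for 8-cell TBE was 38.6% over all ICM regions and 11.4% over ICM regions absent from GV oocyte to morula. For 2-cell and 4-cell TBE it was 3.59% and 4.27% over all ICM regions. Of the 11067 ICM-only regions, 1 and 5 overlapped these, so near absence there was shared by both sets that are absent from earlier stages. In single libraries, 351 (17.1%), 798 (38.9%) and 152 (7.41%) ICM/ESC regions had a peak in 8-cell TBE replicates 1, 2 and 3. These shares followed the length of the lists, of 90890, 247513 and 50090 peaks. In 4-cell TBE replicates the shares were 3.65%, 0.0975% and 0.195%, and in 2-cell TBE replicates 0, 0.390% and 0.877%.

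ICM-only regions had peaks less often than ICM/ESC regions in each 8-cell TBE library, with 9.65%, 29.5% and 3.48%. Morula-born regions, also shared with ESC, had them more often than ICM/ESC regions in each, with 21.4%, 45.7% and 11.2%. A higher share than in ICM-only regions was thus not particular to ICM/ESC regions. The difference between ICM/ESC and ICM-only regions was 6.93 percentage points at the 8-cell stage (SD 2.77, n = 3 libraries). It was 0.623 at the 4-cell stage (SD 0.985, n = 3) and 0.115 at the 2-cell stage (SD 0.262, n = 3), where almost no region had a peak. Over the 9 TBE libraries it was 2.56 points (SD 3.60), with ICM/ESC regions higher in 6 of 9, and an exact two-sided sign-flip permutation test gave p = 0.03125. That test pools libraries of stages with unlike differences as if independent, and the mean came mostly from the 8-cell stage, so its p-value is only a guide. The 3 libraries of a stage cannot go below p = 0.25 by the same exact test, which was the value at the 8-cell stage. The call was lost when any replicate number was left out, with differences of 2.28 to 3.09 points, and when peaks below a mean −log10 q of 3 were dropped (2.89 points, exact permutation p = 0.0625).

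ICM/ESC regions also had peaks in single earlier control libraries more often than ICM-only regions, as given above. Among the 775 ICM/ESC and 5596 ICM-only regions with no peak in any earlier control list, a choice made after the data had been seen, the 8-cell TBE shares were 8.65%, 25.2% and 2.97% against 5.93%, 22.9% and 1.82%. The difference over 9 libraries fell to 0.798 points, in the same direction (exact permutation p = 0.03125). Of these regions, 232 of the 775 (29.9%) had a peak in at least 1 TBE list, against 1426 of the 5596 ICM-only regions (25.5%), and most of both came from the longest list, 8-cell TBE replicate 2. TBE peaks in ICM/ESC regions had median fold enrichments of 3.28, 2.53 and 3.57 in 8-cell TBE replicates 1, 2 and 3, against 3.77, 2.69 and 4.28 over all ICM regions.

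**Figure D5:**
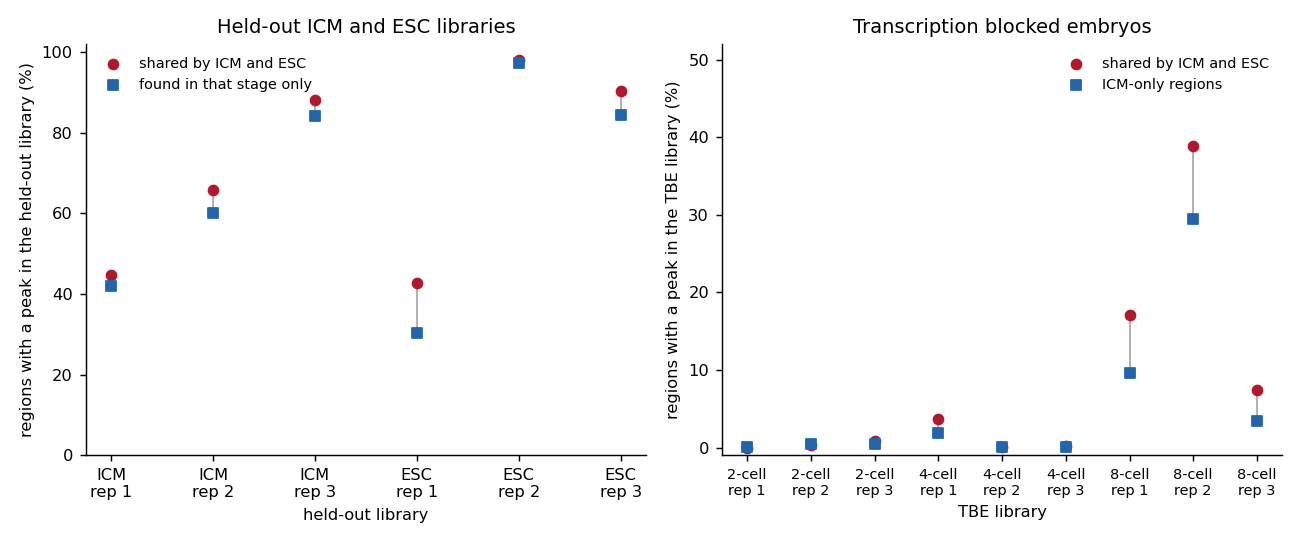
Share of regions with a peak (%) in libraries that took no part in choosing them: held-out ICM and ESC libraries (left) and TBE libraries (right), for regions shared by ICM and ESC (red circles) and regions of a single stage (blue squares), joined by a line within a library. Shared regions are higher in 6 of 6 held-out libraries and in 6 of 9 TBE libraries, with gaps of 3.93 to 9.40 points in the 8-cell TBE libraries.

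Most ICM/ESC regions, 1146 (55.8%), had no peak in any TBE list, against 67.3% of ICM-only regions. A peak in 1 list was found in 549 (26.8%, against 22.9% of ICM-only regions), and in 4 or more in 18 (0.877%, against 0.434%). Of those 18, 17 also had a peak in an earlier control list, as did 62.2% of all ICM/ESC regions. Peaks of 5 TBE lists overlapped 1 region and peaks of 4 overlapped 17, of which the 2 with the largest mean fold enrichment in ICM and ESC lists are given. The region chr1:540983-541837 had peaks in 5 TBE lists, with fold enrichments of 4.32, 3.17 and 3.52 in 8-cell TBE replicates 1, 2 and 3, 3.31 in 4-cell TBE replicate 1 and 3.42 in 2-cell TBE replicate 2, and it had peaks of 3.45, 3.06 and 2.81 in 4-cell replicate 1, 8-cell replicate 1 and morula replicate 2. Its ICM values were 3.45, 3.03 and 4.15, and its ESC values 3.44 and 3.05 in replicates 2 and 3, with no peak in replicate 1. The values of the lists that held it thus ranged from 2.81 to 4.32. At chr18:32791403-32792637, 4 TBE lists and 1 list of every earlier control stage had a peak, with ICM values of 4.91, 6.65 and 6.79. At chr1:4468797-4469078, 4 TBE lists had a peak, among them 2-cell TBE replicate 3 with a fold enrichment of 6.10, as did a single 8-cell control list.

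Control and TBE embryos of the 8-cell stage can be compared only in regions whose choice used neither, so the rule was repeated without the 8-cell lists, a step added after the data had been seen. It gave 2260 regions, the 2052 ICM/ESC regions and 208 more. Peaks were present in 10.6%, 12.3% and 12.7% of them in control replicates 1, 2 and 3, and in 19.9%, 41.4% and 8.85% in TBE replicates 1, 2 and 3. The TBE mean was 23.4% ± 16.5 and the control mean 11.9% ± 1.10 (SD, n = 3 each), a difference that did not exceed the spread between libraries (exact two-sided permutation p = 0.4, where 0.1 is the smallest possible). Over all ICM regions the shares were 50.9%, 48.5% and 54.5% in control and 37.6%, 54.4% and 27.2% in TBE, a mean difference of −11.6 points, opposite in sign to the 11.5 points of the chosen regions.

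List length and the use of morula in the rule both moved this comparison. With the 50090 top peaks of every 8-cell list, 10.5%, 9.78% and 8.85% of the 2260 regions had a peak in TBE and 1.50%, 1.55% and 1.95% in control, so that all TBE values lay above all control values (8.04 points, exact permutation p = 0.1, the smallest possible). Over all ICM regions those shortened lists gave 29.5%, 26.1% and 27.2% in TBE and 29.7%, 28.2% and 29.0% in control. When absence from morula was dropped from the rule as well, 15624 regions remained, and the difference was −11.5 points with all peaks. With equal numbers of top peaks in these 15624 regions the values lay close together, at 24.8%, 21.7% and 22.0% in TBE and 22.6%, 19.9% and 22.7% in control. With peaks of at least 3-fold enrichment the 8-cell difference was −0.190 points.

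Without the 4-cell lists in the rule, 2090 regions had peaks in 9.71%, 3.83% and 1.48% in control and in 4.26%, 0.191% and 0.239% in TBE replicates 1, 2 and 3 of the 4-cell stage. The share was lower in TBE for each replicate number (exact permutation p = 0.3, and p = 0.25 when paired by number, the smallest that 3 pairs can give). All ICM regions were lower in TBE too, with differences of −8.76, −11.0 and −7.05 points for replicates 1, 2 and 3. Control and TBE embryos were divided from the same collections, but the labels do not state that equal numbers mark 1 collection, and deviations of same-numbered libraries correlated between −0.0137 and 0.0226 at the 8-cell stage and between 0.0172 and 0.248 at the 4-cell stage.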

How the data were processed

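ATAC-seq peak lists of 30 libraries, 3 for each of 10 groups, were used. Per the labels and the methods of the study, reads were trimmed with Trim Galore, aligned to ARS-UCD1.2 with BWA 0.7.17, filtered with SAMtools 1.7, and broad peaks were called with MACS2 2.1.1. For its own stage comparisons the study pooled the replicates of a stage and subsampled them to equal depth before calling peaks. The lists used here are of single libraries. The authors deposited for each peak its fold enrichment over local background, its −log10 p and −log10 q averaged over the peak, and a score, which was not used. The stated q value limit was 0.05, but the deposited lists reach a mean −log10 q of about 1.00. Reads behind each list were not used here, so depth enters only as list length.

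Regions, overlaps and shares were computed in Python 3.11.15 with numpy 2.4.6 and pandas 2.3.3, drawn with matplotlib 3.10.9, and the interval functions were checked on simulated data (0 mismatches in 200 trials). Tests were exact two-sided sign-flip or permutation tests over libraries with a threshold of 0.05, since regions are not replicates. Named regions were, of those with peaks in all 6 ICM and ESC lists and in no earlier control list, the 10 highest by mean fold enrichment, and the 3 with peaks in the most TBE lists, with ties settled by mean fold enrichment. The regions and the lists were chosen with earlier results of these data known. Gene assignment, promoter distance, marker genes and motifs were planned and not run, because the gene table at hand is on another build.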

Additional observations from a re-analysis of the deposited data

How the results depend on the processing

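The number of ICM/ESC regions, 2052, depended on peak filters and on the rule. It was 940 when peaks below a mean −log10 q of 3 were dropped, 205 with equal numbers of top peaks in ICM and ESC lists (39333 each, the length of the shortest), 805 with regions from all 3 replicates and 5929 with regions from any replicate, and it stayed within 1.5 times under 4 of 10 alternatives. Without a replicate number at every stage it ranged from 803 (without replicate 3) to 1940, with 1029 without replicate 2.

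The TBE difference of 2.56 points kept its direction under all 15 alternatives. It no longer passed the threshold when peaks below a mean −log10 q of 3 were dropped (2.89 points, exact permutation p = 0.0625), with equal numbers of top peaks (1.36 points, p = 0.125), regions from any replicate (1.48 points, p = 0.0586) or 8-cell TBE libraries only (6.93 points, p = 0.25), and ranged from 2.28 to 3.09 points without 1 replicate. The held-out difference of 5.30 points kept its direction under all 12 alternatives, fell to 3.89 points with equal numbers of top peaks (exact permutation p = 0.125), and ranged from 3.91 to 6.17 points without 1 library, where 0.0625 is the smallest possible p. With a replicate block, averaging libraries of the same number first, these differences stayed at 2.56 and 5.30 points, with p = 0.25, the smallest that 3 blocks can give in an exact test. Whether equal numbers pair these libraries is not stated in the labels. Deviations of same-numbered libraries correlated between −0.355 and 0.0796 across TBE stages and between −0.0394 and −0.00811 for ICM and ESC. So few pairs cannot settle the question. The 8-cell difference between TBE and control of 11.5 points was 8.04 with equal numbers of top peaks, turned to −0.190 with peaks of at least 3-fold enrichment and to −11.5 without morula in the rule, and was 2.72 to 19.2 points without 1 replicate; with the replicate block its exact p was 0.5. The cause of these shifts was not tested. The share within 2 kb of a start site and motif matches were not run, as no genome or annotation of the build was used. List length limits every share, and a region missing from a short list may lie below its limit of detection.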
